A study of Mus musculus with 48 samples.

Results

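The comparison described here concerns genotype in unstressed offspring: the hippocampal RNA of 7 mice labelled 5-Htt+/- was set against that of 8 mice labelled 5-Htt+/+, all of them control (C) offspring. These 15 of the 48 libraries of the study were taken by their labels for stress condition and genotype, with no measured value used. The study asked how prenatal stress and reduced serotonin transporter (5-HTT) function act together on the hippocampus of female mice. The animals were of the C57BL/6 strain and 3 months old, and they carried either no or 1 targeted copy of the transporter gene Slc6a4, inherited from a 5-Htt+/- father (line B6.129(Cg)-Slc6a4tm1Kpl/J) mated with a wildtype C57BL6/J mother. No library is of an animal labelled as lacking both normal copies. Control dams were left undisturbed. The dams of the other 33 offspring were restrained 3 times a day from embryonic day 13 to 17, and these prenatally stressed offspring were divided by their later sociability, as SA (socially affected) or SU (socially unaffected), 17 labelled 5-Htt+/- (8 SA and 9 SU) and 16 labelled 5-Htt+/+ (8 of each). None of the stressed libraries is a control library, so the same genotype difference could be measured a second time in them. All animals had gone through behavioural tests and an acute restraint for corticosterone sampling before tissue was taken, and the litter of an animal is not in the labels.

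5-HTT is the membrane pump that takes serotonin back into the nerve ending, and it is the target of many antidepressants. The neurons that make it have their cell bodies in the raphe nuclei of the brain stem, and they send fibres into the hippocampus, where serotonin acts on receptors of pyramidal cells, granule cells and interneurons. The hippocampus also carries a high density of receptors for corticosterone, the main stress hormone of the mouse, which switches on a set of genes within hours.

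Each library holds the reads of both hippocampi of 1 animal, and its total lay between 18193105 and 37465332 counts in the control libraries (16488405 to 38213754 over all 48). Levels are given as CPM, the read counts scaled to the size of the library, and a gene is called where its Benjamini-Hochberg adjusted p over 31208 genes is under 0.05. Because hippocampus is a mixture, fewer cells of a type and less RNA per cell cannot be told apart. The genes of pyramidal and granule neurons were present throughout, with mean log2 CPM of the list between 6.29 and 6.70 in all 15 control libraries. Total counts, the number of genes with a read, the share of mitochondrial counts and the share of the 20 most counted genes were not shown to differ between the labels. Exact two-sided permutation tests gave adjusted p-values of 0.254 to 0.47 over the 4 measures. All 4 means were lower in libraries labelled 5-Htt+/-, with 4.60% against 5.10% for the mitochondrial share. The share of the 20 most counted genes was 7.62% against 8.19%. Of the 6 libraries lowest on the first principal component, which holds 7.6% of the variance, 4 are control libraries, namely replicates 1, 3 and 7 labelled 5-Htt+/- and replicate 7 labelled 5-Htt+/+.

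Few genes differed between the genotype labels of unstressed offspring. Of 31208 genes 4 were called (0.0128%), all 4 of them higher in the libraries labelled 5-Htt+/-: Slc6a4 itself, Trpv1 and Shpk, which lie on chromosome 11 proximal of it, and the long noncoding RNA 1700128E19Rik of chromosome 8. None was called lower in the quasi-likelihood test of edgeR (0%), whereas the likelihood ratio test called Gm13335 lower, and 4930435N07Rik, Gm13335 or Gm44801 was called lower without certain single libraries. In the stressed libraries 5 genes were called, again all higher (0.0160%), and 3 of them were Slc6a4, Trpv1 and 1700128E19Rik. The count in control libraries was 2, Slc6a4 and Trpv1, without replicate 1 labelled 5-Htt+/-, without replicate 4 or replicate 5 labelled 5-Htt+/+, and without the 6 libraries lowest on the first principal component. An unadjusted p under 0.05, called nominal from here on, was reached by 2375 genes (7.61%) in control libraries, 1348 higher (4.32%) and 1027 lower (3.29%). In stressed libraries 869 genes (2.78%) were nominal. If no gene differed, a share of 0.05 would be nominal. The inflation factor, the median test statistic over that without any difference, was 1.552 in control and 0.720 in stressed libraries. The 2375 and 869 therefore do not compare the size of the genotype effect.

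The nominal count depended on single libraries. It was 1333 without replicate 3 labelled 5-Htt+/-, 4585 without replicate 4 of that label, 4821 without replicate 7 labelled 5-Htt+/+ and 1344 without the 6 libraries lowest on the first principal component. With the share of mitochondrial counts as a term the nominal count was 1271. Leaving out the 6 libraries removes replicates 1, 3 and 7 of the 7 control libraries labelled 5-Htt+/- and replicate 7 of the 8 labelled 5-Htt+/+. Fewer libraries alone can also lower a nominal count, here and below. The median change of all genes was near 0 throughout, at a log2 fold change of 0.0015 with every library.

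The targeted gene separated the labels completely, but in the direction opposite to the loss of 1 copy. In the 7 control libraries labelled 5-Htt+/- Slc6a4 lay between 13.6 and 15.9 CPM (median 15.5, 286 to 532 reads a library). In the 8 labelled 5-Htt+/+ it lay between 0 and 0.253 CPM (median 0.103, at most 5 reads and none in 1 library). The groups are far apart, with the higher level in the animals labelled as carrying 1 intact copy. The log2 fold change was 6.93 ± 0.15 (SE), that is 122-fold, with an adjusted p of 4.65e-37 in the quasi-likelihood test of edgeR. Summed over libraries, 2569 reads stood against 25.

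The same split was present after prenatal stress. The 17 stressed libraries labelled 5-Htt+/- held 12.8 to 17.0 CPM of Slc6a4 (median 14.8), and the 16 labelled 5-Htt+/+ held 0 to 0.262 (median 0.147). No library of either label fell into the range of the other, in control or in stressed offspring, and Slc6a4 was the single gene of 31208 whose stressed groups did not overlap (0.00320%). The log2 fold change was 6.62 ± 0.10 (SE) over all stressed libraries, 6.24 in SA and 7.0 in SU, and the difference between control and stressed, 0.31 ± 0.27 (SE, 95% interval -0.23 to 0.86), did not pass the test (adjusted p = 0.896). A count per gene does not show which exons the reads came from, so it does not check the targeted part of Slc6a4 itself. Since neither the direction nor the size (122-fold in control libraries) is that of losing 1 copy, all libraries are called by their label here. Neither an exchange of the labels nor the origin of the reads within the gene was tested. Each direction given here is that of the labels and would turn with an exchange of them, whereas the size of a change would stay.

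**Figure D1:**
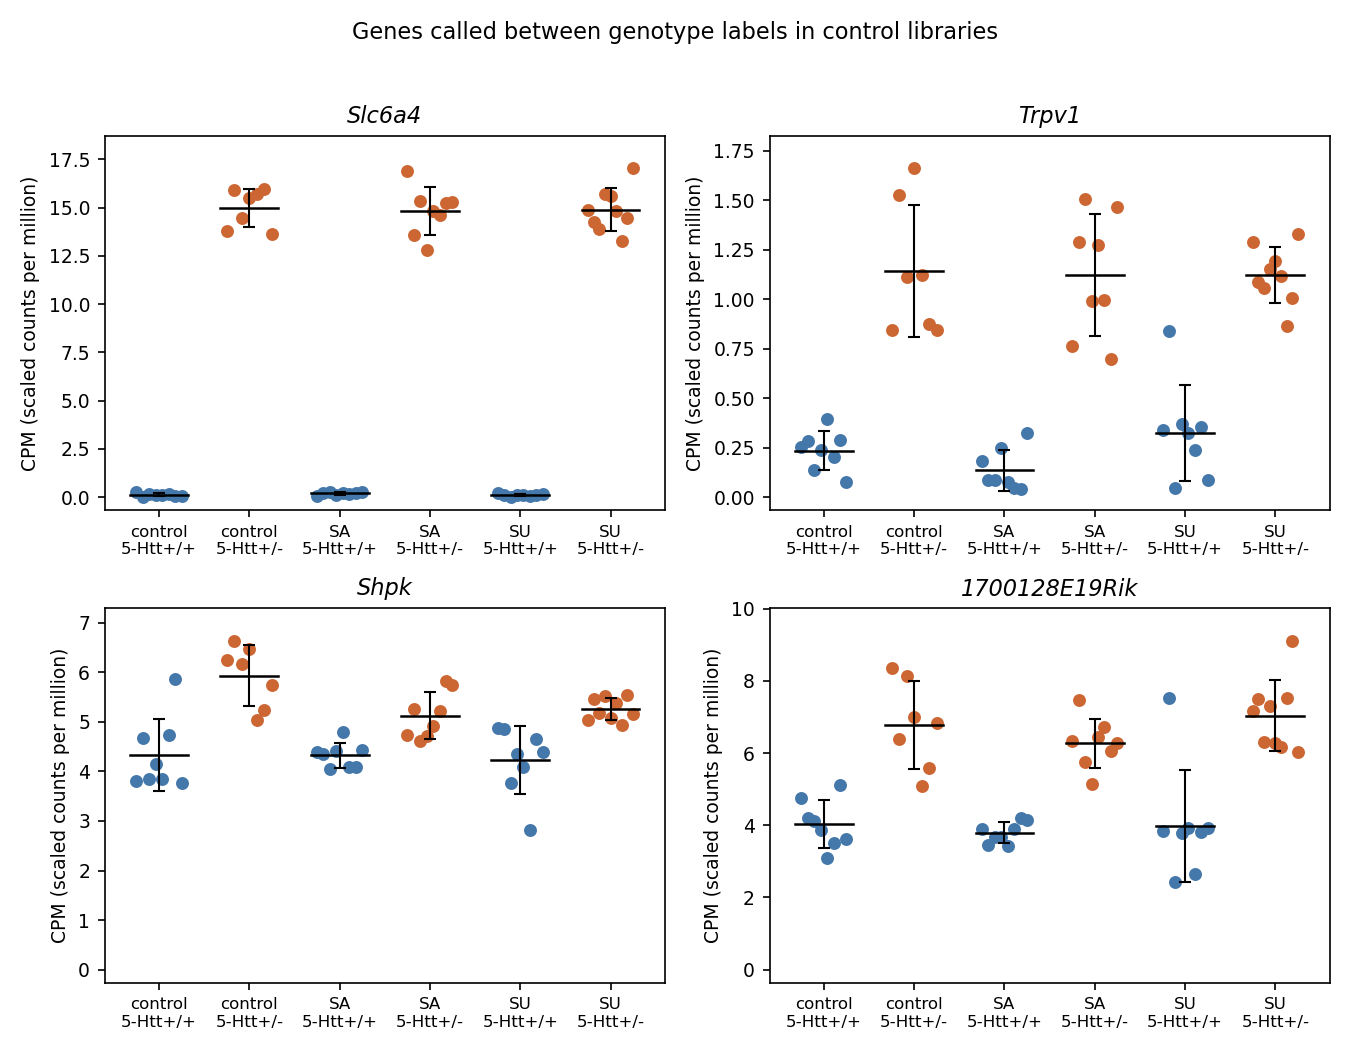
CPM of the 4 genes called in control libraries, with 1 point per library, a bar for the mean and whiskers of 1 SD, in the 6 groups of genotype label and exposure (blue 5-Htt+/+, orange 5-Htt+/-). Slc6a4 lies at 12.8 CPM or more in every library labelled 5-Htt+/- and at 0.262 or less in every library labelled 5-Htt+/+, while Trpv1 and 1700128E19Rik each have 1 high library among SU 5-Htt+/+.

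Slc6a4 occupies bases 76998603 to 77032340 of chromosome 11, on the plus strand (GRCm38, as in the deposited table), and Trpv1 bases 73234292 to 73261242, also on the plus strand and 3.74 Mb closer to the centromere. The windows from 250 bases before to 50 bases after the RNA start are shown for both because these are the 2 genes called under every alternative. They come from RefSeq (GRCm38.p6), chr11:76998347-76998646 on the plus strand for Slc6a4 and chr11:73233899-73234198 on the plus strand for Trpv1, with the first 50 transcribed bases in capitals.
Slc6a4: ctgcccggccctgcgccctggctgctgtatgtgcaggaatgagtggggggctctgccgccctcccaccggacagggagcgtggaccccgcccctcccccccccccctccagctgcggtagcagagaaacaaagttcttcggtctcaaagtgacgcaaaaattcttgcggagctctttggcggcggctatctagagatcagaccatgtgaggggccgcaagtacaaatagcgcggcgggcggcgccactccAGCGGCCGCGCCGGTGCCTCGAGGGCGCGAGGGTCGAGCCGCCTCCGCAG
Trpv1: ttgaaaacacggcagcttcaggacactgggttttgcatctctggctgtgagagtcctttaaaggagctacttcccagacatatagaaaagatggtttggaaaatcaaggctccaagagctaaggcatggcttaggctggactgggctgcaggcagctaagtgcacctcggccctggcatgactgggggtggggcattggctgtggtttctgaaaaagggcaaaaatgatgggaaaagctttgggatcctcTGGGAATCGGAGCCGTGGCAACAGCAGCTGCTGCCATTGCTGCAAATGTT
The Slc6a4 window is 67.7% G and C and holds 28 CpG, and the Trpv1 window is 51.7% G and C and holds 4, where the medians over all 32851 windows are 52.7% and 7. These letters are those of the reference genome and not of the targeted allele.

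Trpv1 encodes a cation channel that opens to heat and capsaicin, best known from sensory neurons. It was a rare transcript here, with 0.844 to 1.66 CPM (median 1.11, 20 to 38 reads) in the control libraries labelled 5-Htt+/- and 0.0760 to 0.394 CPM (median 0.247, 2 to 12 reads) in those labelled 5-Htt+/+. The groups did not overlap, which held for 4 of 31208 genes in this direction (0.0128%) and for 7 in the other (0.0224%). The log2 fold change of Trpv1 was 2.24 ± 0.30 (SE), or 4.72-fold, with an adjusted p of 1.39e-05 (edgeR).

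In stressed libraries Trpv1 changed by 2.33 ± 0.21 (SE, adjusted p = 1.26e-10), from 0.0425 to 0.839 CPM in libraries labelled 5-Htt+/+ to 0.699 to 1.5 CPM in those labelled 5-Htt+/-. Replicate 2 of the SU 5-Htt+/+ group, at 0.839 CPM, is the library within the range of the other label. The change was 2.99 in SA and 1.67 in SU offspring, and the difference between control and stressed, -0.09 with an interval of -0.83 to 0.64, did not pass the test (adjusted p = 0.974). Trpv1 was called without each control library in turn, with log2 fold changes of 2.11 to 2.40.

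Shpk, the gene next to Trpv1, encodes sedoheptulokinase, which feeds a sugar into the pentose phosphate pathway. Its levels were 5.04 to 6.64 CPM (median 6.17) in control libraries labelled 5-Htt+/- and 3.76 to 5.86 CPM (median 4.0) in those labelled 5-Htt+/+. The groups overlapped through replicate 7 labelled 5-Htt+/+, while the other 7 of that label were at most 4.73. The log2 fold change was 0.45 ± 0.09 (SE), or 1.37-fold, with an adjusted p of 0.0316. This call was lost without any of replicates 1, 2, 3, 4 and 7 labelled 5-Htt+/- and any of replicates 1, 3, 4, 5 and 8 labelled 5-Htt+/+, with adjusted p-values up to 0.133 and log2 fold changes of 0.42 to 0.53. It was also lost with only the 15 control libraries in the fit, and over all 28 alternatives the adjusted p reached 0.898. In stressed libraries the change of 0.28 ± 0.06 (SE) had an adjusted p of 0.126, and the 2 changes did not differ by the test (0.18, interval -0.03 to 0.39, adjusted p = 0.876).

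Ctns, on the other side of Shpk, encodes cystinosin, which carries cystine out of lysosomes. It stood at 13.5 to 16.3 CPM in control libraries labelled 5-Htt+/- and at 15 to 18.3 in those labelled 5-Htt+/+, and its log2 fold change of -0.12 was not called (adjusted p = 0.653; -0.17 and 0.211 in stressed libraries). Shpk and Ctns start 440 bases apart in RefSeq and are read in opposite directions, so that their start windows share 61 bases. Both windows are shown, each on its own strand and with the shared bases in capitals, because the pair had log2 fold changes of opposite sign in both comparisons. They lie at chr11:73199232-73199531 on the plus strand (Shpk) and chr11:73198993-73199292 on the minus strand (Ctns), from RefSeq and GRCm38.p6.
Shpk: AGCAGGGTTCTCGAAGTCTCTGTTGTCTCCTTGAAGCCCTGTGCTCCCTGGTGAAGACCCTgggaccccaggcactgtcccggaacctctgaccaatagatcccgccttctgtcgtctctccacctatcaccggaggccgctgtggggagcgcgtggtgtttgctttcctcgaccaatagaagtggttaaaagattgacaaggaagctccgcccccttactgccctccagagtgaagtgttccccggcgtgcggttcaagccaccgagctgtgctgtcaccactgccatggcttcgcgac
Ctns: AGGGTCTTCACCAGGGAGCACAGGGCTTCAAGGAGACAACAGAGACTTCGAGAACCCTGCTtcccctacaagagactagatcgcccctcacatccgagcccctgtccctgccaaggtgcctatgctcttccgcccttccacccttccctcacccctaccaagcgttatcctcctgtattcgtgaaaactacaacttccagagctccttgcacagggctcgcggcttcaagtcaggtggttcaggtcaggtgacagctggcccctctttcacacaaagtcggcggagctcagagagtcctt

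The nearest genes on either side of Slc6a4 were not called. Blmh, a cysteine protease whose gene ends 11.2 kb before Slc6a4, was at 37.4 to 41.8 CPM in control libraries labelled 5-Htt+/- and at 37.3 to 45.4 in those labelled 5-Htt+/+. Nsrp1, a splicing regulator and the next gene after it, was at 7.43 to 15.6 and 7.11 to 14.7 CPM. The log2 fold changes were -0.02 (interval -0.10 to 0.07, adjusted p = 0.926) and -0.12 (interval -0.38 to 0.14, adjusted p = 0.778).

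Within Slc6a4, on the opposite strand, lies Gm12343, annotated as an antisense RNA. It had 0 to 4 reads in each control library labelled 5-Htt+/- and at most 1 read in those labelled 5-Htt+/+, 6 of which had none. Its log2 fold change of 2.94 ± 0.67 (SE) was not called in control libraries (adjusted p = 0.230) and one of 2.69 ± 0.43 was called in stressed libraries (adjusted p = 0.000957). Nothing used here states whether the counting kept strands apart, so these few reads cannot be told from reads of Slc6a4.

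Xaf1, an interferon-induced gene that encodes a partner of the caspase inhibitor XIAP, lies 4.68 Mb proximal of Slc6a4. It was at 5.52 to 7.11 CPM (median 6.05) in control libraries labelled 5-Htt+/- and at 3.73 to 6.73 (median 4.61) in those labelled 5-Htt+/+, a log2 fold change of 0.35 ± 0.12 (SE) that was not called (adjusted p = 0.595). It was called in stressed libraries, with 0.46 ± 0.08 (adjusted p = 0.00248). The difference between the 2 changes was -0.11 and did not pass the test (adjusted p = 0.907).

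Genes near Slc6a4 were further described by how often the 2 comparisons, which share no library, both reached a nominal difference. Within 5 Mb of either end of Slc6a4, 241 genes were tested, of which 26 (10.8%) were nominal in control and 25 (10.4%) in stressed libraries. Of these, 11 were nominal in both, and all 11 had the same direction in both, which is 42.3% of the first number and 44.0% of the second. Slc6a4 itself and Gm12343 within it are 2 of the 11 and are counted in these shares. The number nominal in control libraries was 15 without replicate 3 or 7 labelled 5-Htt+/-, 17 without replicate 3 or 6 labelled 5-Htt+/+, 43 without replicate 4 labelled 5-Htt+/-, 50 without replicate 7 labelled 5-Htt+/+ and 12 without the 6 libraries lowest on the first principal component. On the other chromosomes 2181 of 28936 genes (7.54%) and 780 (2.70%) were nominal, 67 were nominal in both, and 33 of the 67 had the same direction. On the rest of chromosome 11 the numbers were 168 and 64 of 2031, with 7 in both and all 7 in the same direction. These counts describe the regions, and neighbouring genes are not independent of each other.

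The 11 genes, with Slc6a4 and Gm12343 among them, are not spread evenly. Between 5 and 3 Mb proximal of it, 41 genes were tested and 8 were nominal in both comparisons with the same direction, among them Xaf1, Shpk, Ctns and Trpv1. Distal of it, 124 genes were tested up to 5 Mb, of which 2 were nominal in control and 3 in stressed libraries, and none in both. Without any 1 control library 9 to 14 genes within 5 Mb, Slc6a4 itself included, were nominal in both comparisons, and all of them had the same direction. Without those 6 libraries lowest on the first principal component they numbered 8, again all in the same direction.

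**Figure D2:**
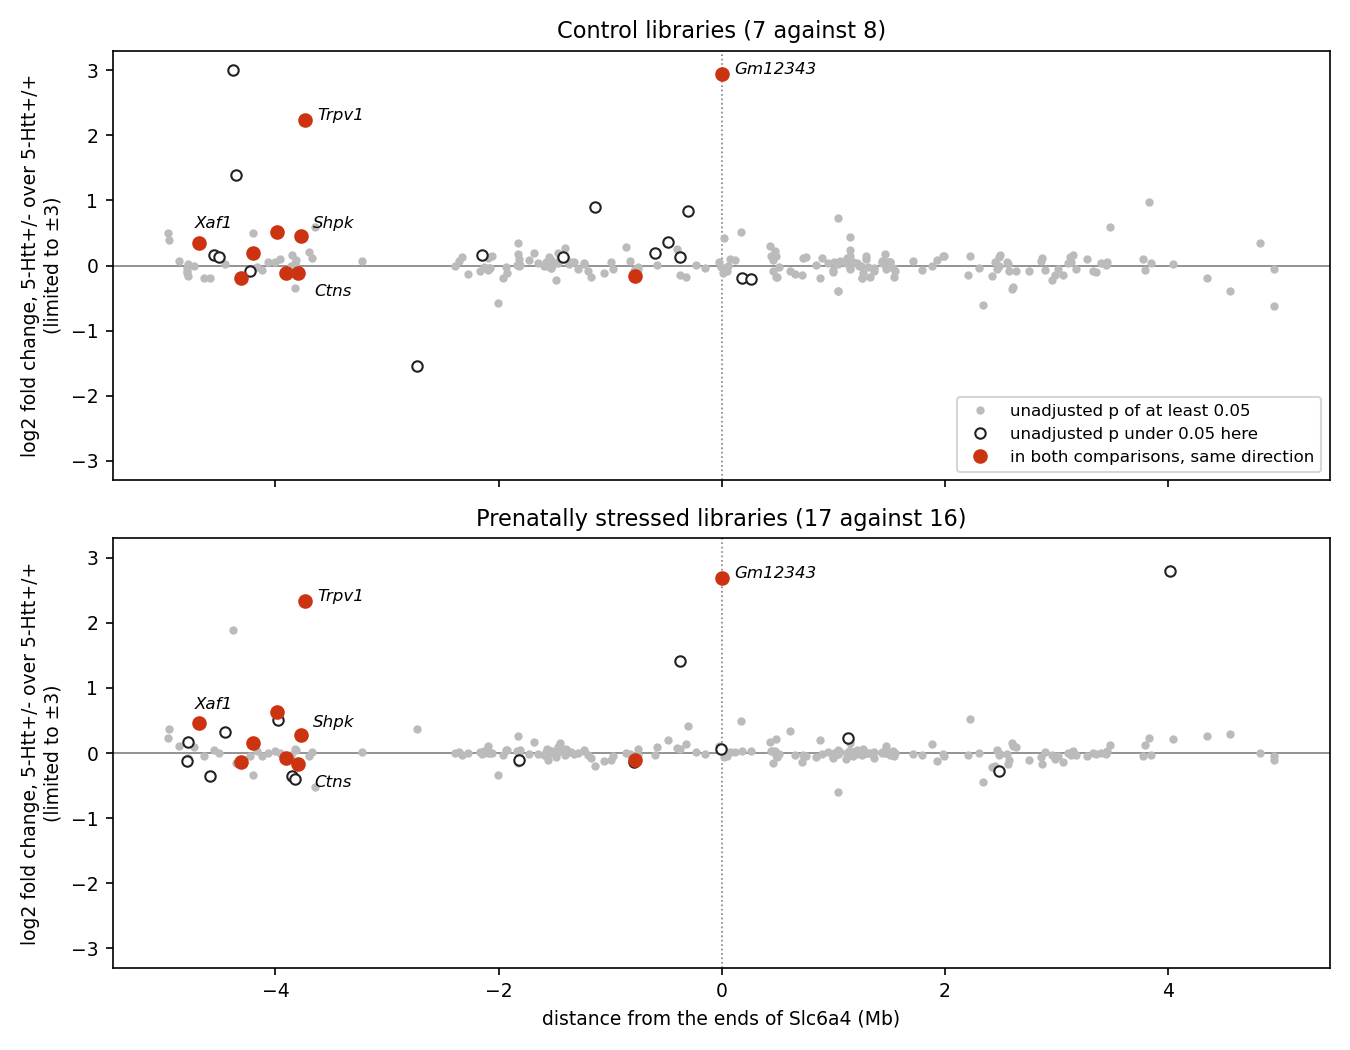
Log2 fold change, 5-Htt+/- over 5-Htt+/+, of each gene tested within 5 Mb of Slc6a4, against its distance from the ends of Slc6a4 in Mb, in control (top) and prenatally stressed libraries (bottom). Values are limited to 3 in either direction and Slc6a4 itself is not drawn. Filled red points, nominal in both comparisons with the same direction, gather proximal of Slc6a4, apart from Gm12343 within Slc6a4. None lies distal of Slc6a4.

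The changes of these neighbours were mostly small. Cyb5d2, a heme-binding protein of the cytochrome b5 family, was at 11.2 to 12.9 CPM in control libraries labelled 5-Htt+/- and at 9.71 to 12.5 in those labelled 5-Htt+/+ (log2 fold change 0.19 in control and 0.15 in stressed libraries). P2rx1, an ATP-gated channel of low level here, had values of 0.52 and 0.64. On the negative side were Ube2g1, a ubiquitin-conjugating enzyme (-0.19 and -0.13), Ncbp3, an RNA cap-binding protein (-0.11 and -0.08), and Gemin4, a part of the complex that loads spliceosomal RNAs (-0.16 and -0.11). None of these 5 was called in either comparison, with adjusted p-values of 0.518 or more.

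Over the whole of chromosome 11, 18 genes were nominal in both comparisons, 13 of them proximal of Slc6a4, 2 at it and 3 distal, and none in opposite directions. The farthest were Gm12298, 10.1 Mb proximal, and Igfbp4, 22.0 Mb distal. Nlrp1c-ps, a pseudogene of the inflammasome sensor family 5.71 Mb proximal, had -0.90 ± 0.34 (SE) in control and -0.74 ± 0.22 in stressed libraries, and Pld2, a phospholipase D, had 0.17 ± 0.07 and 0.11 ± 0.05. Reads of Nlrp1c-ps may be shared with its close copies. Its neighbours of that family went in opposite directions, Nlrp1a with 0.455 and 0.844 and Nlrp1b with -0.153 and -0.560 in control and stressed libraries. Neither was called in the quasi-likelihood fit of all libraries. Nlrp1a was called in stressed libraries by the likelihood ratio test and with only the 33 stressed libraries in the fit. Of the 18 genes, 10 had positive and the others negative values.

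**Figure D3:**
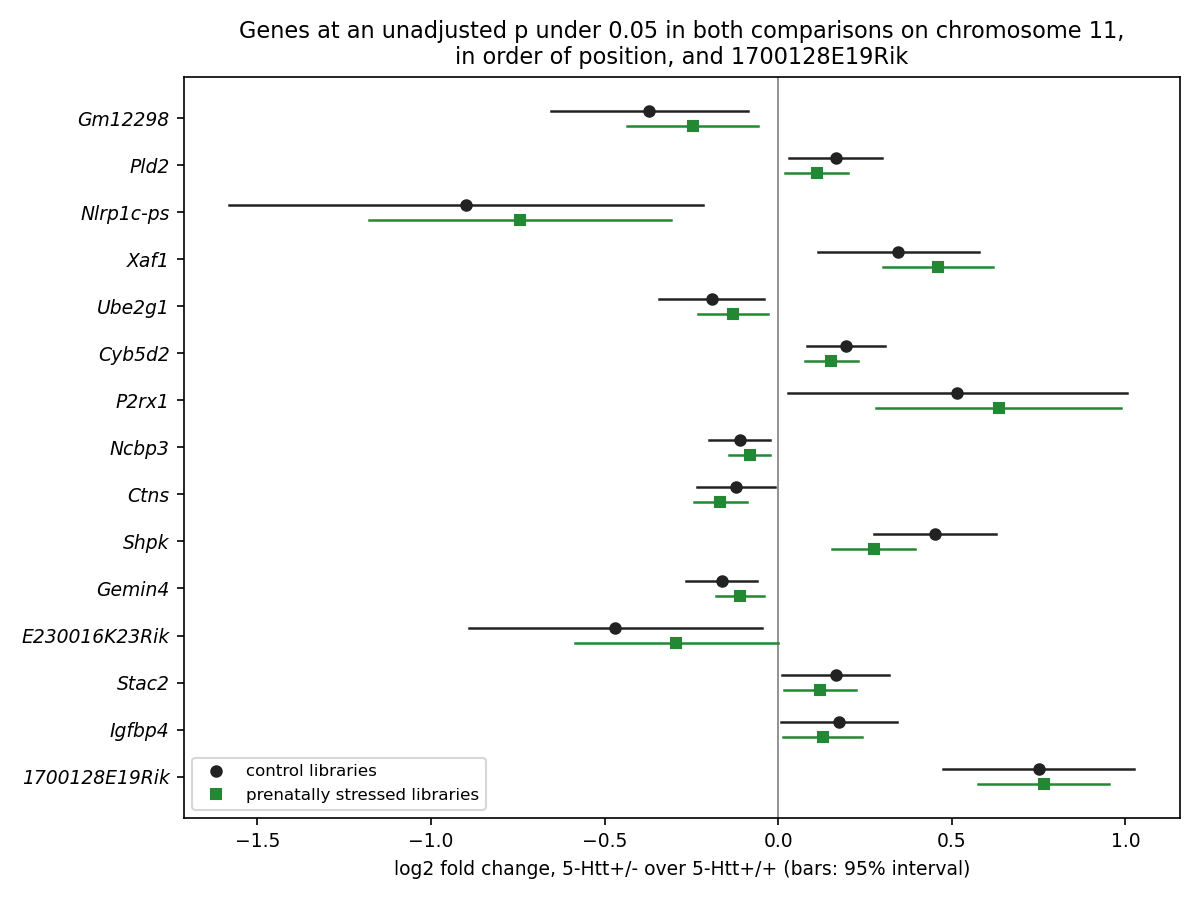
Log2 fold change, 5-Htt+/- over 5-Htt+/+, with 95% intervals, of the chromosome 11 genes nominal in both comparisons and below 1 in size in both, in order of position, and of 1700128E19Rik on chromosome 8. Control libraries (black circles, 7 against 8) and stressed libraries (green squares, 17 against 16) lie on the same side of 0 for each gene.

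The remaining called gene is not linked to Slc6a4 by position. 1700128E19Rik is annotated as a long intergenic noncoding RNA on chromosome 8, bases 11713264 to 11722620 of the plus strand. Control libraries labelled 5-Htt+/- held 5.10 to 8.36 CPM (median 6.83), and those labelled 5-Htt+/+ held 3.09 to 5.11 (median 4.0), so that the groups touch at 5.1. The log2 fold change was 0.75 ± 0.14 (SE), or 1.68-fold, with an adjusted p of 0.0162. Stressed libraries had 0.76 ± 0.09 (adjusted p = 1.26e-06), with 0.73 in SA and 0.80 in SU, both called (as for 0.00961% of genes in each).

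Replicate 2 of the SU 5-Htt+/+ group, which was high for Trpv1, was also the highest of all 24 libraries labelled 5-Htt+/+ for 1700128E19Rik, at 7.52 CPM against at most 5.11 in the others. The call of 1700128E19Rik in control libraries was lost without replicate 1 or 3 labelled 5-Htt+/- and without replicate 4 or 5 labelled 5-Htt+/+, with adjusted p-values up to 0.101 and log2 fold changes of 0.69 to 0.81. It was also lost with only the 15 control libraries in the fit, and over all 28 alternatives the adjusted p reached 0.683.

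No gene was called for a difference between the genotype change in control and that in stressed libraries (0%, smallest adjusted p 0.695 in edgeR). In that test 1660 genes (5.32%) were nominal, and DESeq2 called none either, with 1640 nominal. The genotype changes below that stand apart in control libraries were therefore not shown to differ from those in stressed libraries.

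Among the 10 genes of smallest p in control libraries, 6 were not called. Mt1, the metallothionein that binds zinc and copper, was at 70.0 to 134 CPM (median 79.5) in libraries labelled 5-Htt+/- and at 52.9 to 74.2 (median 63.3) in those labelled 5-Htt+/+, a log2 fold change of 0.44 ± 0.10 (SE, adjusted p = 0.136). The top value was that of replicate 3 labelled 5-Htt+/-, and the change was 0.295 without it. Gja4, connexin 37 of arterial endothelium, had 0.68 ± 0.16 (adjusted p = 0.260), and there too replicate 3 held the highest value, 2.38 CPM against at most 1.43 in the other 6. In stressed libraries Mt1 had -0.01 and Gja4 0.13.

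3 noncoding RNAs were lower in value in libraries labelled 5-Htt+/- without being called in the quasi-likelihood fit of all libraries. The snoRNA Gm25117 was at 4.34 to 5.63 against 5.98 to 8.15 CPM (-0.43 ± 0.10, SE, adjusted p = 0.260). Its groups did not overlap, as for 0.0224% of all genes in this direction. Gm13335 had 0 to 3 reads against 4 to 16 (adjusted p = 0.0927), and was called without replicate 3 labelled 5-Htt+/- (0.0156) and by the likelihood ratio test of edgeR (0.00962). 4930435N07Rik had 0 to 2 reads in libraries labelled 5-Htt+/- and 0 to 33 in those labelled 5-Htt+/+, of which 4 lay at 0.879 to 1.08 CPM and the other 4 at 0 to 0.0944 (adjusted p = 0.0915). It was called without any of replicates 2, 3, 7 and 8 labelled 5-Htt+/+, which are 4 of the 8 libraries of that label, with adjusted p-values of 0.0109 to 0.0373. The other uncalled gene of the 10 is Gm12343, described above.

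Among genes that make, move and break down serotonin, none but Slc6a4 was called. Of 20 listed, 18 passed the filter on low counts (Fev and Slc6a2 did not), and 1 was called, Slc6a4. Their median log2 fold change was 0.06, beside 0.0015 for all genes, with 10 of 18 above 0 (all genes 50.5%). Slc6a4, Tph2 and Aldh2 were the 3 that were nominal and higher (all genes 4.32%), and 1, Maoa, was nominal and lower (all genes 3.29%). Tph2, the enzyme that makes serotonin in neurons, was at 1.12 to 2.33 CPM in libraries labelled 5-Htt+/- and at 0.653 to 1.75 in those labelled 5-Htt+/+ (0.40 ± 0.18, SE, adjusted p = 0.653). Maoa, which breaks serotonin down, was at 21.7 to 29.1 against 22.3 to 32.6 CPM (-0.14 ± 0.07, adjusted p = 0.653), and Aldh2, which handles the product of that step, had 0.16 ± 0.08 (adjusted p = 0.653). In stressed libraries these 3 genes had 0.01, -0.01 and -0.01.

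All 14 serotonin receptor genes were measured and none was nominal in either direction in control libraries. The median was -0.04, with 6 of 14 above 0 (all genes 50.5%). Htr1a, the main inhibitory receptor of the list on pyramidal cells, had 0.00, and Htr2c, the most counted one, was at 28.4 to 46.3 CPM in libraries labelled 5-Htt+/- and at 31.3 to 61.5 in those labelled 5-Htt+/+ (-0.17 ± 0.13, SE, adjusted p = 0.700). The other values under -0.15 were those of Htr1f (-0.23), Htr1b (-0.18) and Htr2a (-0.153), with adjusted p-values of 0.667 to 0.684. The 95% intervals of these 4 genes began between -0.53 and -0.36 and ended between 0.04 and 0.08.

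Genes known to be switched on by corticosterone through the glucocorticoid receptor stood higher as a list in control libraries labelled 5-Htt+/-, with no single one called in the quasi-likelihood test. Its member Mt1 was called by DESeq2 (adjusted p = 0.0252) and by the likelihood ratio test of edgeR (adjusted p = 0.0331). Of 32 genes, all tested, 26 had positive values, 16 were nominal and higher (all genes 4.32%) and 1, Pdk4, was nominal and lower, and the median was 0.21. In stressed libraries 11 of 32 were positive (all genes 49.2%) and the median was -0.02. For the difference between the 2 comparisons 15 of 32 were nominal and none was called. Mean log2 CPM of the list was 3.79 to 4.21 (median 3.87) in control libraries labelled 5-Htt+/- and 3.52 to 3.95 (median 3.69) in those labelled 5-Htt+/+.

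Sgk1, a kinase that regulates ion channels and is a classic target of the hormone, was at 60.9 to 88.5 CPM (median 74.0) in libraries labelled 5-Htt+/- and at 51.0 to 71.1 (median 54.2) in those labelled 5-Htt+/+. In 5 of the 7 libraries it exceeded every library of the other label, and its log2 fold change was 0.36 ± 0.09 (SE, adjusted p = 0.456). In stressed libraries it lay at 41.8 to 62.0 and 42.8 to 62.8 CPM (-0.06). Per1, a clock gene that the hormone also induces, was at 48.0 to 66.6 against 39.8 to 54.4 CPM (0.27 ± 0.07, adjusted p = 0.518; stressed 0.02). Nfkbia, the inhibitor of NF-kappa-B, was at 10.2 to 15.4 against 8.28 to 12.8 CPM (0.35 ± 0.10, adjusted p = 0.518). Of other well-known members, Tsc22d3 had 0.25, Ddit4 0.31, Dusp1 0.42 and Fkbp5, a brake on the receptor, 0.13.

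The nominal count of the list was 12 to 18 without each control library in turn and 5 without the 6 libraries lowest on the first principal component, where 25 of 32 were still positive and the median was 0.165. The time between the acute restraint and tissue collection, and the corticosterone level of each animal, are not in the labels, and their part was not tested. Over all its animals, the paper reports no significant effect of genotype, prenatal stress or their interaction on corticosterone. Its control group means, before and after restraint, were not higher in 5-Htt+/- mice. One start window of the list holds the full palindrome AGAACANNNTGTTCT, the binding motif of the glucocorticoid receptor (N is any base, and both strands read alike). It was searched in all 32851 windows and found in 3 (0.00913%), 1 of them at an RNA start of Sgk1. Among the list, 27 genes had a window and 1 held the motif. The Sgk1 window is chr10:21993640-21993939 on the plus strand (RefSeq, GRCm38.p6), 1 of 6 starts of this gene, with the motif in capitals.
Sgk1: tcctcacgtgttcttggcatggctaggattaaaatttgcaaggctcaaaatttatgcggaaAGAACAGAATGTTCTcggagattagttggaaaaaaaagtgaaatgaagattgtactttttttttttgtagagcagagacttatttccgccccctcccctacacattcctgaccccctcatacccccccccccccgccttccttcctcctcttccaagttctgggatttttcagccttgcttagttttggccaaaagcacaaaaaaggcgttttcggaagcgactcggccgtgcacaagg
The motif begins 189 bases before the RNA start. A match of letters is no evidence of binding in these animals.

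**Figure D4:**
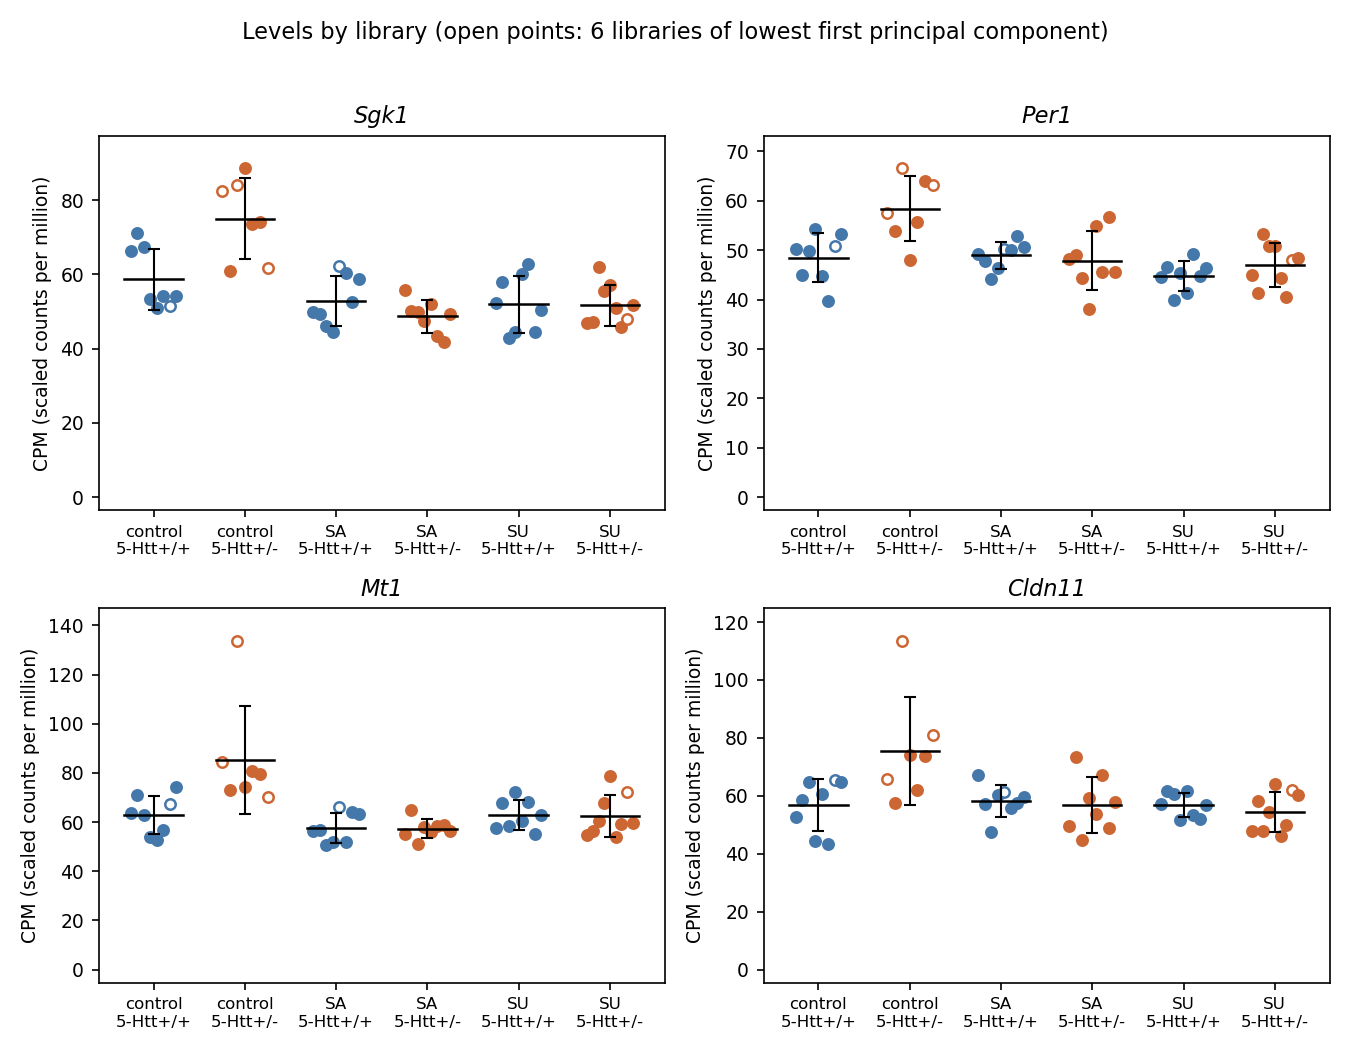
CPM of Sgk1, Per1, Mt1 and Cldn11 with 1 point per library, a bar for the mean and whiskers of 1 SD (blue 5-Htt+/+, orange 5-Htt+/-). Open points are the 6 libraries lowest on the first principal component. The control 5-Htt+/- group has the highest mean of the 6 groups in all 4 panels, and its top Mt1 and Cldn11 points are replicate 3.

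Immediate early genes, which neurons switch on within minutes of activity, had a median of 0.15 with 20 of 27 positive (all genes 50.5%). Of these 27, 4 were nominal and higher (all genes 4.32%) and 1 nominal and lower (all genes 3.29%). Atf3 was at 0.530 to 1.17 CPM in libraries labelled 5-Htt+/- and at 0.408 to 0.658 in those labelled 5-Htt+/+ (0.69 ± 0.21, SE, adjusted p = 0.518). Nr4a1 was at 30.3 to 87.1 against 31.2 to 53.8 CPM (0.37 ± 0.16, adjusted p = 0.653), whereas Nr4a2 was at 42.2 to 51.2 against 44.1 to 66.2 (-0.19 ± 0.09, adjusted p = 0.653). In stressed libraries the median of the list was 0.00 with 12 of 27 positive.

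Myelin genes also stood higher as a list in control libraries labelled 5-Htt+/-. Of 18 genes of mature oligodendrocytes, the cells that wrap axons, 17 were positive (all genes 50.5%). Nominal and higher were 11 (all genes 4.32%), none was called and the median was 0.21. In stressed libraries 4 were positive (all genes 49.2%) and the median was -0.02. Cldn11, a tight junction protein of myelin, was at 57.5 to 114 CPM (median 73.6) in libraries labelled 5-Htt+/- and at 43.2 to 65.5 (median 59.7) in those labelled 5-Htt+/+ (0.40 ± 0.11, SE, adjusted p = 0.518). Mag, a myelin adhesion protein, was at 59.0 to 128 against 48.9 to 71.7 CPM (0.37 ± 0.11, adjusted p = 0.518). Hapln2, of the nodes of Ranvier, had 0.44 ± 0.13 and Mbp, the basic protein of myelin, 0.31 ± 0.09.

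Replicate 3 labelled 5-Htt+/- was the highest of its group for Cldn11 and Mag. Without it, 5 of the 18 myelin genes were nominal, and without the 6 libraries lowest on the first principal component 3 were, with medians of at least 0.127 in each case and all 18 positive in the second. Whether the oligodendrocytes of these animals or the share of white matter in the dissected tissue moved with the label was not tested. Mean log2 CPM of the myelin list was 5.98 to 6.68 in libraries labelled 5-Htt+/- and 5.81 to 6.33 in those labelled 5-Htt+/+.

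**Figure D5:**
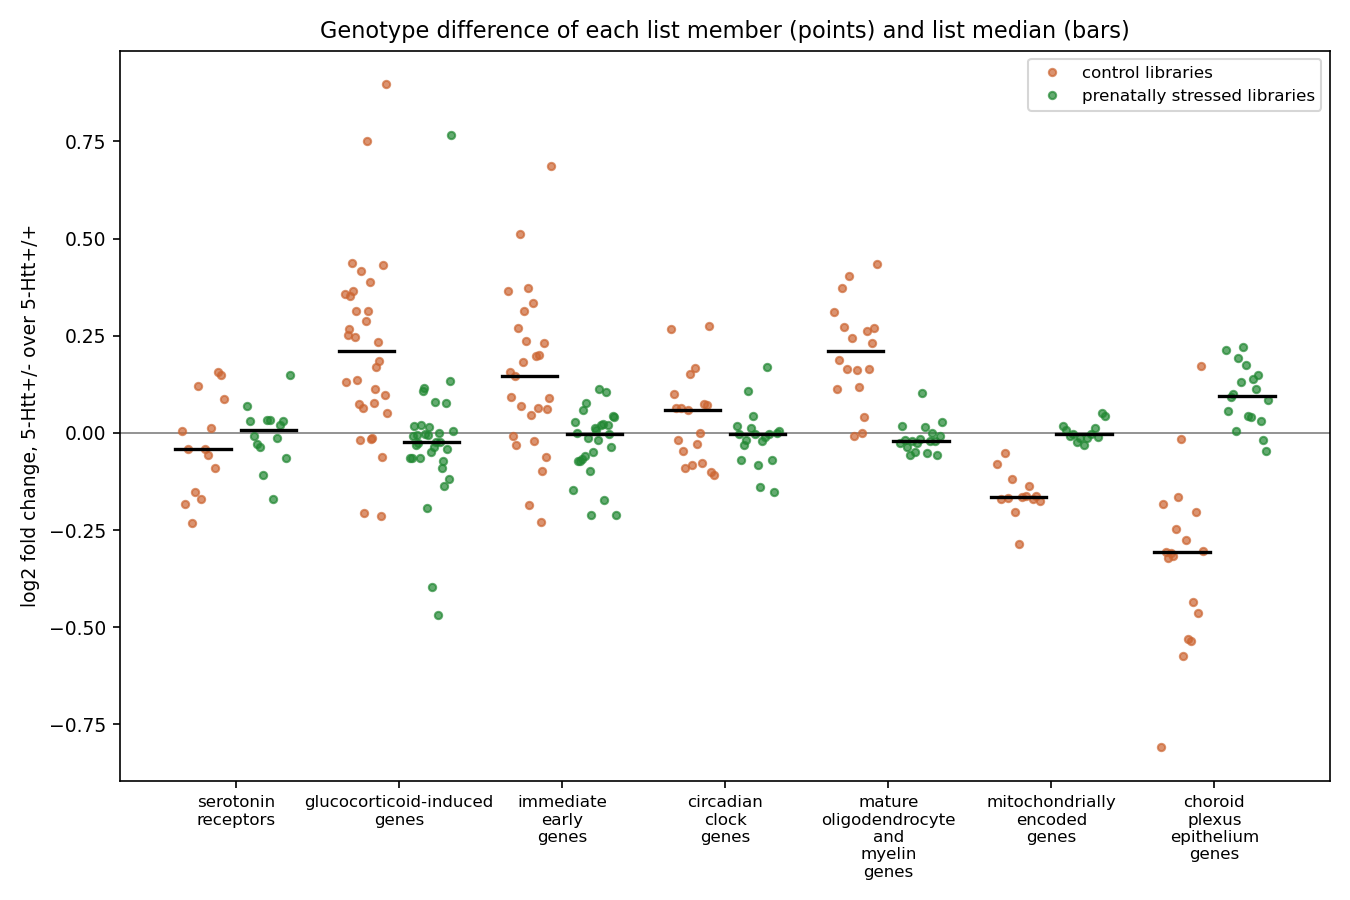
Log2 fold change, 5-Htt+/- over 5-Htt+/+, of each member of 7 gene lists (points) and the median of the list (bar), in control (orange) and prenatally stressed libraries (green). In control libraries the medians run from -0.31 for choroid plexus to 0.21 for glucocorticoid-induced and myelin genes, and in stressed libraries they lie between -0.02 and 0.10.

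All 13 protein genes of the mitochondrial genome had negative values in control libraries, with a median of -0.17. Of these, 5 were nominal and lower (all genes 3.29%) and none was called. mt-Cytb, a subunit of respiratory complex III, was at 2973 to 4192 CPM in libraries labelled 5-Htt+/- and at 3538 to 4524 in those labelled 5-Htt+/+ (-0.17 ± 0.05, SE, adjusted p = 0.595), and mt-Co2, of complex IV, at 4049 to 4873 against 4365 to 5564 (-0.16 ± 0.05, adjusted p = 0.595). The share of mitochondrial counts was 4.60% ± 0.678 (SD, n = 7) and 5.10% ± 0.498 (SD, n = 8), with an adjusted p of 0.254 in an exact two-sided permutation test. Without those 6 libraries lowest on the first principal component the median of the list was -0.0133, and without replicate 3 labelled 5-Htt+/- it was -0.0973. In stressed libraries it was 0.00.

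Genes of the choroid plexus, which borders the hippocampus in the ventricle, differed widely between single libraries of both labels. Ttr, the transport protein that this epithelium secretes, was at 5.99 to 575 CPM in control libraries labelled 5-Htt+/- and at 9.33 to 643 in those labelled 5-Htt+/+. The mean log2 CPM of 18 epithelial genes was 0.55 to 3.55 and 0.50 to 3.58, and its median was 0.83 and 0.84. The median log2 fold change of the list was -0.31, with 1 of 18 positive (all genes 50.5%) and none nominal. It was -1.19 without replicate 5 labelled 5-Htt+/- and 0.210 without replicate 4 labelled 5-Htt+/+. Prl of the pituitary was highest in that same replicate 5, at 8.04 CPM against at most 0.541 in the other 6.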

How the data were processed

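The authors deposited raw whole-number counts of reads for 48440 genes in 48 libraries (single-end reads of 50 bases). Their processing notes name STAR, HTSeq and GRCm38.p5, whereas the methods name STAR and Salmon. Nothing used here states how strands or multiply placed reads were handled, which bears on overlapping and near-identical genes. Column totals were 16488405 to 38213754 counts, and no row lacked a gene name. Over 17555 genes the most alike of 49 pairs of control libraries of 1 group had a chi-square of 6.23 per gene, so each library was taken as a separate animal. Because up to 2 pups of a genotype came from 1 litter and litters are not in the labels, p-values may be too small.

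A gene needed 5 reads in 3 libraries to be tested (31208 passed). In edgeR 4.0.16 (R 4.3.3, limma 3.58.1) all 48 libraries entered 1 quasi-likelihood fit with upper quartile scaling and a mean for each of 6 groups, and p-values were adjusted over all genes. The contrasts were 5-Htt+/- minus 5-Htt+/+ in control libraries, the same over SA and SU libraries, within each of them, and the difference between the first 2. Levels are CPM of the scaled library size, and list levels average log2 CPM (prior count 2). Intervals of log2 fold changes are 95% intervals from the fit. Library measures were compared by exact permutation tests (SciPy 1.17.1). The fit was tested on simulated data.

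Gene lists (26 lists, 450 entries, 442 tested) are described by counts and medians without a test. The members, lists and regions were chosen with earlier results of these data known. Named genes are Slc6a4 and its tested neighbours, up to 25 called genes, the 10 of smallest p, called genes within 5 Mb, the 10 of smallest p called in stressed libraries, and up to 4 of smallest p per list. Others were named after their values were seen: Htr1a, Tsc22d3, Ddit4, Dusp1, Fkbp5, Pdk4, Nlrp1a, Nlrp1b and the chromosome 11 genes nominal in both comparisons. Ttr and Prl were named likewise, where a list turned on them. The alternatives were other tests (likelihood ratio, robust fit, DESeq2 1.42.0), scalings and filters, added terms, the replicate block and left-out libraries.

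Same-numbered control libraries of the 2 labels did not deviate together: the correlations of their deviations from the group means were -0.138 to 0.26 over 7 pairs, and 1 pair was highest with its own number.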

Additional observations from a re-analysis of the deposited data

Results flagged for a closer look

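Of 174 sets of 7 or 8 control libraries examined, 20 held a library that stood apart from the rest by the gap to its nearest neighbour, and chance gives about 1 in 20 sets. Replicate 3 labelled 5-Htt+/- was the highest of its group for Mt1 (134 CPM, others at most 84.6), Gja4 (2.38, others at most 1.43), Cldn11 (114, others at most 80.9), Mag (128, others at most 87.0) and Gm13335 (0.152, others at most 0.0477). It had 0 reads of 4930435N07Rik, where the others held 1 or 2 (0.0416 to 0.0650 CPM), a gap at the floor of the counts. It is also 1 of the 6 libraries lowest on the first principal component.

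Replicate 5 labelled 5-Htt+/- stood apart for choroid plexus and pituitary genes. Ttr was at 575 CPM against at most 24.9 in the other 6, Prl at 8.04 against at most 0.541, the mean log2 CPM of the choroid plexus list at 3.55 against at most 1.01 and that of the pituitary and pineal list at -0.01 against at most -0.81. The same library was highest for Htr1b (9.28 CPM, others at most 8.03).

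Replicate 7 labelled 5-Htt+/+, the library of lowest first principal component, was highest for Shpk (5.86 CPM, others at most 4.73) and Blmh (45.4, others at most 40.7), and lowest for Nsrp1 (7.11 CPM) and for the mean log2 CPM of glutamate and GABA receptor subunits (6.41, others at least 6.65). Among the other libraries labelled 5-Htt+/+, replicate 5 was lowest for Gemin4 (15.7 CPM, others at least 18.5) and highest for the mean log2 CPM of immediate early genes (4.51, others at most 4.23), replicate 2 was highest for Oxt (0.189 CPM, others at most 0.0831) and replicate 8 for Prl (0.57, others at most 0.203). Replicate 6 labelled 5-Htt+/- was highest for Nr4a2 (51.2 CPM, others at most 45.8).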

How the results depend on the processing

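Slc6a4 and Trpv1 were called in control libraries under all 28 alternatives, with log2 fold changes of 6.78 to 7.11 and 2.11 to 2.46. Shpk was called under 13 and 1700128E19Rik under 21 of them, always with a positive value. The count of 4 genes called became 7 with DESeq2, which added Gm10800, Gm26870 and Mt1, 6 with the likelihood ratio test, which added Mt1 and, lower, Gm13335, and 2 with the share of mitochondrial counts as a term, without the 6 libraries lowest on the first principal component, and with only the 15 control libraries in the fit, and it ranged from 2 to 5 without each control library in turn. It was 3 or 4 under the other alternatives. With the replicate block it was 4, and those numbers do not pair the animals (own number highest in 1 of 7 pairs). With that block 5 genes were called in stressed libraries and 0 for the difference, as without it, and 2542 genes were nominal in control libraries. In stressed libraries 4 to 7 genes were called under the alternatives, and 5 without SU 5-Htt+/+ replicate 2, which was added after seeing the data. No alternative gave a call for the difference between control and stressed libraries. Values turned sign for Blmh (-0.0297 to 0.0121 without each control library), Nsrp1 (0.0148 with the first principal component as a term) and Ttr (-0.81 with all libraries, 0.0954 with the same term, -3.17 without control 5-Htt+/- replicate 5), and the cause was not tested. Counts of genes within 5 Mb of Slc6a4 that were nominal in both comparisons, Slc6a4 itself included, were 8 to 14. All had the same direction except for 1 of 11 with the share of mitochondrial counts as a term. These counts too were examined after seeing the data. Gm12343 has no value under the stricter filter of 10 reads in 7 libraries. Reads are few for Trpv1, Gm12343, Gm13335, 4930435N07Rik and Oxt.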

Other observations

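Lists not described so far gave the following in control libraries, with no gene of them called in the quasi-likelihood test (Mt1 was called by DESeq2 and the likelihood ratio test). Genes of oligodendrocyte precursors had 9 of 13 positive and a median of 0.04, and those of astrocytes 10 of 15 and 0.07. Sox10, a transcription factor of the oligodendrocyte lineage, had 0.30 ± 0.09 (SE, adjusted p = 0.572). Astrocyte Aldh1l1 had 0.19 ± 0.06 (adjusted p = 0.595). Microglia genes had 7 of 15 positive (-0.02), brain endothelium 8 of 15 (0.02), pericytes and smooth muscle 8 of 10 (0.18), meningeal fibroblasts 11 of 14 (0.29), ependymal cells 13 of 15 (0.04), interneurons 8 of 16 (0.02), pyramidal and granule neurons 10 of 18 (0.04), thalamus 9 of 13 (0.08), pituitary and pineal gland 8 of 11 (0.13) and adult neurogenesis 3 of 14 (-0.05). Nominal and higher were 4 genes of brain endothelium, 3 of oligodendrocyte precursors and 3 of astrocytes. Pericytes and smooth muscle, thalamus, and pituitary and pineal gland had 1 such gene each. Brain endothelium, oligodendrocyte precursors, and pyramidal and granule neurons had 1 nominal and lower gene each. Over all genes, 50.5% were positive, 4.32% were nominal and higher and 3.29% were nominal and lower.

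Among pathways, circadian clock genes had 11 of 19 positive with a median of 0.06, heat shock and chaperone genes 10 of 20 (-0.03), metallothioneins and zinc transporters 7 of 10 (0.07), neurotrophins and their receptors 10 of 13 (0.05), interferon-induced genes 11 of 20 (0.04), and corticosteroid receptors and the CRH system 6 of 15 (-0.01). In the order of these lists, 3, 0, 3, 1, 2 and 1 genes were nominal and higher (all genes 4.32%). Nominal and lower were 0, 3, 0, 0, 0 and 1 (all genes 3.29%). Glutamate and GABA receptor subunits had 11 of 36 positive, with a median of -0.10 and none nominal, and -0.00825 without the 6 libraries lowest on the first principal component. Oxt, the neuropeptide oxytocin, had 2 to 11 reads in each control library labelled 5-Htt+/- and 0 to 4 in those labelled 5-Htt+/+ (log2 fold change 2.24 ± 0.65, SE, adjusted p = 0.518; -0.68 in stressed libraries).

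Replicate 2 of the SU 5-Htt+/+ group held Slc6a4 at 0.116 CPM (4 reads), within the range of its label, while 3 other genes of the report were at their highest there among 24 libraries labelled 5-Htt+/+. Trpv1 was at 0.839 CPM (others at most 0.394; libraries labelled 5-Htt+/- 0.699 to 1.66), 1700128E19Rik at 7.52 (others at most 5.11; 5-Htt+/- 5.10 to 9.11) and Cyb5d2 at 12.6 (others at most 12.5; 5-Htt+/- 10.8 to 13.7). Xaf1, Shpk and P2rx1 ranked 3 from the highest in it, at 6.16, 4.86 and 0.665 CPM. Of the other chromosome 11 genes that were nominal in both comparisons and higher in libraries labelled 5-Htt+/-, Igfbp4 was 9th, Stac2 14th and Pld2 18th from the highest of the 24, and Gm12343 had 1 read. Of those lower in libraries labelled 5-Htt+/-, Ube2g1, Ncbp3, Ctns and Gemin4 were 20th to 22nd, at 50.5, 23.7, 15.1 and 17.4 CPM, Nlrp1c-ps and E230016K23Rik 18th, Alox12e 8th and Gm12298 5th.

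Besides Slc6a4, Trpv1, Gm13335 and Gm25117, the control groups did not overlap for Gm16253 and RP24-351P7.6, higher in libraries labelled 5-Htt+/-, and for Cntnap5b, Mir7005, Ints4, Copb1 and Cd3g, lower in them. None of these 7 was called, and they are named for that property after their values were seen. Over all 31208 genes, the control groups did not overlap for 4 higher (0.0128%) and 7 lower (0.0224%). How many genes would do so without any difference was not examined.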
